A study of Populus trichocarpa with 378 samples.

Results

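The members described here are 150 genes of *Populus trichocarpa* whose transcript levels in stem-differentiating xylem, the tissue that is forming wood, differed from wildtype in the same direction in 6 lignin knockdown constructs. The constructs were i20 (PtrC3H3) and i35 (PtrCAD1 and PtrCAD2) of planting batch 3, i26 (PtrCCR2) of batch 4, i29 (PtrCAld5H1 and PtrCAld5H2) of batch 5, and i24 (PtrCCoAOMT1 and PtrCCoAOMT2) and i30 (PtrAldOMT2) of batch 6. For each gene the mean of log2(CPM + 1) over the wildtype libraries of a batch was subtracted from the mean over the libraries of each construct, where CPM is the count of a gene relative to the TMM-scaled total of the library. Of 41334 genes in the count table, 19109 had a mean of at least 5 CPM, and 3115 of these (16.3%) had the same sign in all 6 constructs, 1508 of them higher and 1607 lower than wildtype. The 150 genes with the largest smallest absolute difference were taken, and they divided into 45 higher and 105 lower members. The members were thus chosen by their differences from wildtype in these 6 constructs, so everything on the 6 constructs against wildtype is a description, with no test.

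RNA-seq was done on 378 libraries of transgenic and wildtype trees of the genotype Nisqually-1, grown in a greenhouse to an age of 6 months in 6 planting batches, each with its own 3 wildtype pools. A library holds RNA pooled from clonal trees of 1 line, with up to 3 pools per line. The spread between libraries of a construct is thus that between pools and between its lines. The p-values measure that spread and, except with each line summed to 1 value, treat pools of a line as independent. The transgenes were driven by a xylem-specific promoter of a 4-coumarate:CoA ligase gene, given as Ptr4CL3 for the monolignol constructs. Names starting with i were read as RNA interference and those starting with a as artificial microRNA constructs. The paper, however, lists only an artificial microRNA construct for PtrCCoAOMT3, the target of i21. Names starting with o stand for PtrCAD2 overexpression, in o65 and o66 together with a knockdown of PtrCAD1. The 6 constructs comprised 56 libraries of 19 lines, with 8.59 to 63.7 M counts, set against 12 wildtype libraries with 4.98 to 93.5 M counts. Tests were made in batches 1 and 2, mainly of i7 (PtrPAL2, PtrPAL4 and PtrPAL5) and o67 (overexpression of PtrCAD2) against the wildtype of batch 1 and of i8 (PtrPAL1 to PtrPAL5) against the wildtype of batch 2 and against 7 constructs of that batch directed at PtrLIM and PtrMYB regulators. i20 and i35 share the wildtype libraries of batch 3, and i24 and i30 share those of batch 6. In bulk tissue of this kind, fewer cells of a type and less RNA per cell cannot be told apart.

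Lignin is the phenolic polymer that stiffens the walls of vessel and fiber cells in wood. Its monomers, the monolignols, are made from phenylalanine, and PtrPAL, PtrC4H and Ptr4CL enzymes make the activated cinnamic acids. PtrC3H3, PtrCCoAOMT, PtrCAld5H and PtrAldOMT2 hydroxylate and methylate the ring, and the PtrHCT transferases act together with PtrC3H3. PtrCCR2 and PtrCAD1 reduce the side chain to the alcohol. The 6 constructs thus act on different steps of the pathway, from ring hydroxylation to the last reduction. The identifiers of the count table are not paired with gene names, and 0 of the 150 matched the reference table of 34621 genes. No role is therefore given to any member, the targeted genes and the marker genes of xylem were not looked up, and members are given by identifier, which holds the chromosome, and by position.

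The 45 higher members had a median mean difference over the 6 constructs of 0.67 on the log2(CPM + 1) scale (range 0.30 to 2.08), and the 105 lower members one of -0.52 (range -1.73 to -0.32). Most differences were small in at least 1 construct. The smallest of the 6 differences had a median of 0.29 among higher and 0.30 among lower members, it was over 0.5 in only 4 higher and 8 lower members, and it was over 1 in 1 member, which was higher. The last member taken, Potri.T093500, had a smallest difference of 0.241, and the first gene left out, Potri.006G258700, one of 0.2406, so the list has no natural edge. Members were mostly of modest level, with a median of 14.0 CPM among higher members (5.08 to 104 CPM) and 18.9 CPM among lower members (5.31 to 211 CPM), against 21.5 CPM over all 19109 genes.

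The widest medians were those of i35. The median over the higher members was 0.88 in i35 and 0.77 in i20, and it was 0.77 in i30, 0.50 in i24, 0.43 in i29 and 0.37 in i26. For the lower members the medians were -0.61 in i35, -0.55 in i20, -0.53 in i30, -0.49 in i26, -0.45 in i29 and -0.42 in i24. i35 held the largest absolute difference for 49 of the 150 members and i24 for 10. The smallest difference, the value that set a member's place in the list, was in i24 for 47 members, in i29 for 35 and in i26 for 29, so these constructs decided most of the membership.

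**Figure D1:**
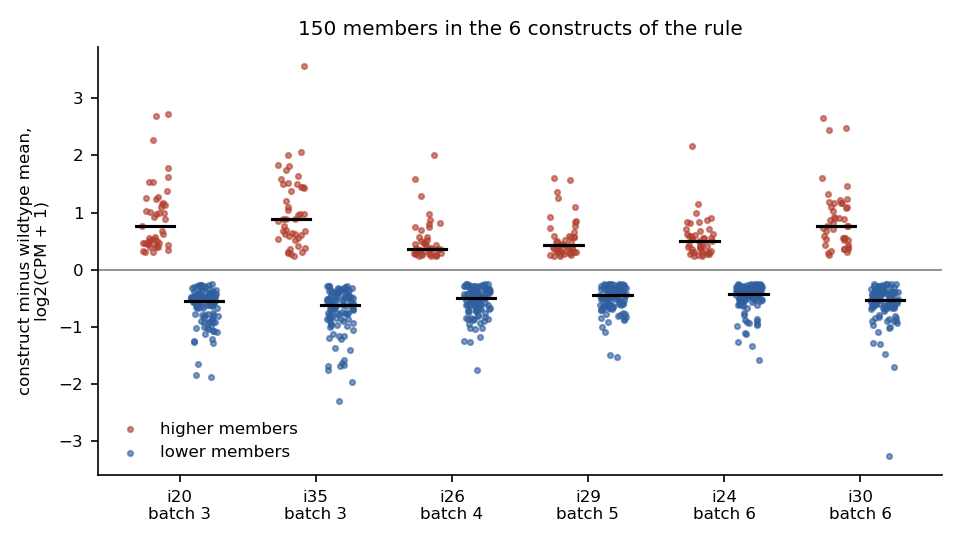
Difference of each of the 45 higher members (red) and 105 lower members (blue) from the batch's wildtype mean, in log2(CPM + 1), in the 6 constructs that chose them. Each point is a gene and black bars are medians. Medians of the higher members lie between 0.37 in i26 and 0.88 in i35, and a few genes reach far beyond the rest in each construct.

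The differences between construct means were not matched by a separation of single libraries. The construct mean lay beyond all 3 wildtype libraries of the batch in all 6 constructs for 12 of 45 higher members (0.434% of all genes) and 35 of 105 lower members (0.586% of all genes). In no member did every library of all 6 constructs lie beyond the wildtype range. Every library of i20 lay beyond it for 17 higher members (8.13% of all genes) and 31 lower members (8.78%). In i35 this held for 14 higher members (10.8% of all genes) and 22 lower members (11.1%), and in i30 for 14 (4.88%) and 31 (6.28%). i24 had 8 such higher members (5.19% of all genes) and 33 lower ones (5.61%), i29 had 5 (1.28%) and 10 (1.70%), and i26 had 1 (1.38%) and 3 (2.08%). These shares are descriptions, because the rule used the same libraries.

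Potri.007G088100 on chromosome 7, the member with the largest smallest difference (1.16), had levels that differed by line. In batch 3 it had 2.12, 26.9 and 64.6 CPM as the lowest, median and highest of the 9 i35 libraries, against 0.583, 1.39 and 1.32 CPM in wildtype. The 8 i20 libraries of that batch had 0.844, 11.8 and 50.6 CPM as lowest, median and highest. All i35 libraries lay above wildtype and 1 i20 library did not. In batch 4, i26 had 18.2, 36.5 and 61.2 CPM as lowest, median and highest of 9, and wildtype had 34.95, 4.87 and 13.1 CPM. The groups overlapped in batch 4, where wildtype was higher than in the other batches.

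In batches 5 and 6 the same gene had 2 levels within a construct. The 3 i29-H libraries had 19.8 to 23.3 CPM, whereas those of i29-L had 0.0830 to 2.46 CPM and those of i29-M 0.0692 to 0.320 CPM, against 0.472, 0.0823 and 0 CPM in wildtype. Lines i24-1 (15.3 to 17.97 CPM) and i24-6 (16.9 to 27.3 CPM) expressed it, and lines i24-5 (0 to 0.309 CPM) and i24-12 (0 to 0.0625 CPM) did not. Of the 3 i30 lines, only i30-15 (8.64 to 9.67 CPM) was above 0.225 CPM. Wildtype of batch 6 had 0, 0.0563 and 0.0411 CPM. For i24, i29 and i30 the mean difference of this gene therefore came from lines with the transcript averaged with lines near 0. The spread between lines of the 6 constructs was 1.85 on the log2(CPM + 1) scale (SD) and that between pools of a line 0.55.

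Lines with and without the transcript were found in constructs of other targets too. Over 119 lines with at least 2 libraries in the whole series, 54 had at least 5 CPM of Potri.007G088100 in every library and 20 had less than 1 CPM in every library. The other 45 lay between, and in 19 of them a library below 1 CPM stood beside one of at least 5 CPM. The highest values were 111 to 126 CPM in line i19-7, whose sister line i19-4 had 0.365 to 0.620 CPM. In batch 1, i7 lines 10, 2 and 6 had 19.3 to 37.7 CPM and line 8 had 0 to 0.146 CPM, the 3 lines of o67 had 0 to 0.434 CPM, and the 3 wildtype libraries were at 0. Of the 18 wildtype libraries, 13 had less than 1 CPM. A fold change against wildtype is not given for batches 1 and 2, where the wildtype libraries held 0 and 2 counts in all.

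Such on and off behaviour was seen in few members. At least 3 lines below 1 CPM in every library and at least 3 lines with at least 5 CPM in every library were found for 4 of 45 higher members (8.89%) and 5 of 105 lower members (4.76%), and for 500 of all 19109 genes (2.62%). The SD between lines of a construct had a median of 0.48 over higher and 0.44 over lower members, against 0.19 over all genes, and the SD between pools of a line one of 0.30 and 0.30, against 0.17 over all genes.

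Potri.014G016500 on chromosome 14, the second higher member, was expressed in every library of the 6 constructs. i20 had 4.48, 14.2 and 60.5 CPM as lowest, median and highest of 8 libraries, i35 had 5.46, 10.0 and 87.8 CPM of 9, and wildtype of batch 3 had 4.48, 5.28 and 3.38 CPM. All i35 libraries were above wildtype, and i20 overlapped it at the lower end. In i26 the lowest, median and highest were 15.4, 25.4 and 59.1 CPM, against 11.6, 11.6 and 25.98 CPM in wildtype, and in i29 they were 10.1, 18.4 and 36.7 CPM, against 5.38, 18.2 and 7.36 CPM. A single wildtype library reached into the construct range in each of these batches. Batch 6 had 3.1998, 7.204 and 11.4 CPM in i24 and 4.01, 7.56 and 31.7 CPM in i30, against 2.62, 3.77 and 3.53 CPM in wildtype. The i30 libraries all lay above wildtype there, and i24 overlapped it.

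Potri.015G003100 on chromosome 15 had the largest smallest difference of the lower members (0.86) and the widest range of differences, between -0.86 in i29 and -3.25 in i30. The 9 i30 libraries had 0.228, 4.19 and 21.5 CPM as lowest, median and highest, the 12 i24 libraries had 11.1, 17.3 and 57.9 CPM, and wildtype of batch 6 had 54.2, 34.3 and 55.7 CPM. Every i30 library was below wildtype, and the highest i24 libraries reached the wildtype level. In batch 3 the i35 libraries (1.01, 13.7 and 18.4 CPM) all lay below wildtype (52.8, 55.5 and 31.6 CPM), and the i20 libraries (12.4, 20.4 and 32.98 CPM) overlapped it at the top. i26 had 0.673, 2.21 and 7.44 CPM, against 13.7, 15.5 and 7.03 CPM in wildtype, and i29 had 15.8, 40.9 and 68.2 CPM, against 75.2, 49.5 and 86.9 CPM. Wildtype of these 4 batches itself ranged between 7.03 CPM in batch 4 and 86.9 CPM in batch 5.

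Potri.015G010500, also on chromosome 15, had the most even difference of the 4 members described, from -0.73 in i26 to -1.27 in i30. In batch 6 its lowest, median and highest values were 7.31, 14.8 and 24.8 CPM in i24 and 7.28, 15.1 and 35.6 CPM in i30, and wildtype had 36.4, 35.8 and 37.7 CPM. The groups did not overlap in that batch. The other constructs overlapped wildtype, with 11.2, 16.0 and 55.3 CPM in i20 and 4.01, 26.2 and 37.8 CPM in i35, against 33.6, 30.1 and 47.1 CPM in wildtype. In i26 it had 3.93, 29.3 and 66.5 CPM, against 62.1, 44.997 and 29.6 CPM, and in i29 it had 4.63, 13.1 and 27.3 CPM, against 32.4, 9.79 and 31.7 CPM in wildtype.

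**Figure D2:**
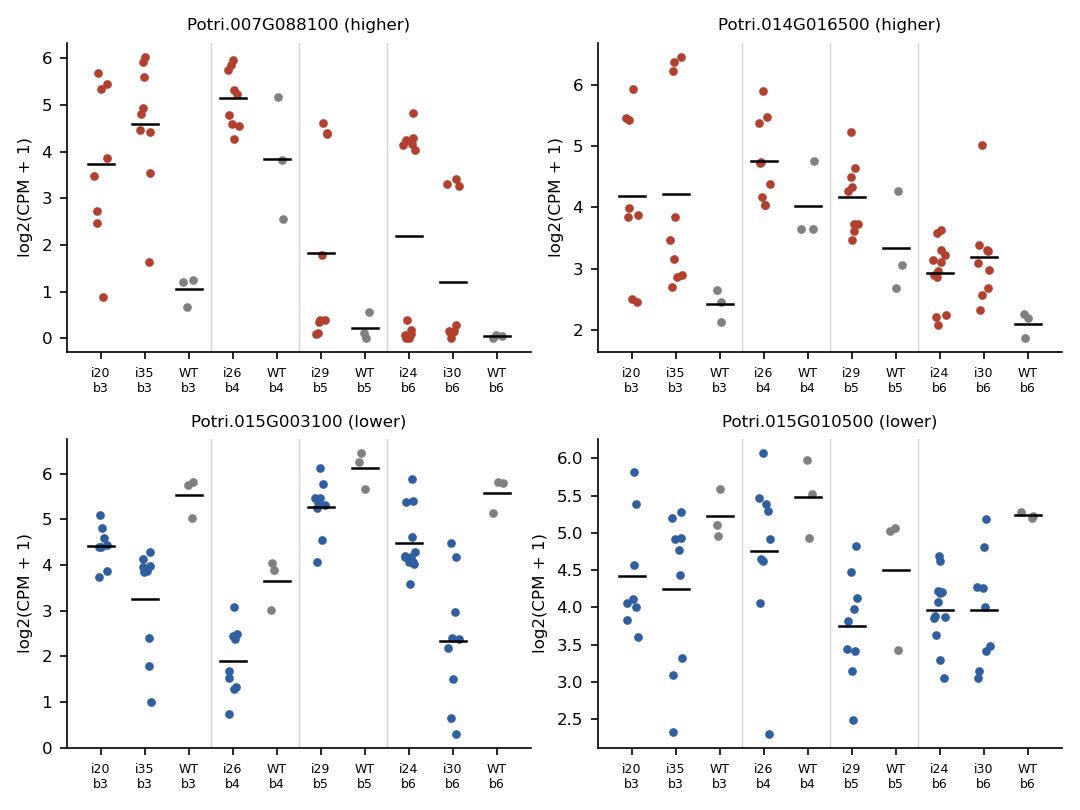
Level of the first 2 higher members (red) and the first 2 lower members (blue), in log2(CPM + 1), in every library of the 6 constructs and, in grey to their right, of the wildtype of the same batch (b3 to b6). Black bars are means. Potri.007G088100 splits into lines with and without the transcript in i24, i29 and i30, and wildtype of batch 4 is the only wildtype shown with more than 1.39 CPM of it.

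The lines of a construct differed in how far the members departed from wildtype. In batch 3, line i35-7 had a median of 1.79 over the higher and -1.33 over the lower members, whereas its sister lines i35-1 (0.46 and -0.23) and i35-15 (0.53 and -0.23) lay nearer to wildtype. Line i20-5 had 1.13 and -0.92, against 0.65 and -0.39 in i20-10 and 0.53 and -0.24 in i20-2. In batch 4, i26-4 (0.94 and -0.86) stood apart from i26-9, in which the medians were 0.06 and -0.18 and only 28 of 45 higher members lay above and 72 of 105 lower members below wildtype. The medians were 1.195 and -0.81 in i30-1, 0.79 and -0.54 in i30-15 and 0.38 and -0.33 in i30-4. The 4 lines of i24 were the most alike, with 0.37 to 0.61 over the higher members and -0.37 to -0.53 over the lower ones. Counted line by line, 12 of 45 higher and 30 of 105 lower members kept the direction of the rule in all 19 lines.

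**Figure D3:**
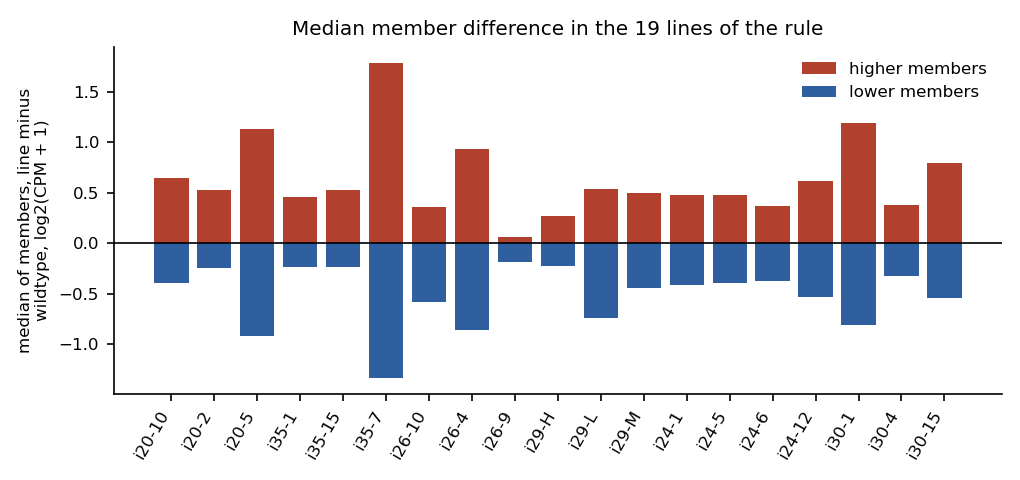
Median difference of the 45 higher (red) and 105 lower (blue) members from the batch's wildtype mean, in log2(CPM + 1), in each of the 19 lines of the 6 constructs. Bars start at 0 and each bar is the median over members of a line mean of 2 or 3 pools. Line i35-7 reaches 1.79 and -1.33, and line i26-9 stays at 0.06 and -0.18.

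The members varied in wildtype too. The range of the 6 wildtype batch means had a median of 1.31 on the log2(CPM + 1) scale over the higher and 0.99 over the lower members, against 0.62 over all genes. Within a batch the mean range of the 3 wildtype libraries had a median of 0.73 over the higher and 0.57 over the lower members, against 0.34 over all genes. The spread of members among wildtype pools of a single batch was thus close to their median mean difference over the 6 constructs (0.67 and -0.52). That spread exceeded the medians of the smallest difference, the value that set membership (0.29 and 0.30). When any 1 of the 12 wildtype libraries was left out, 94 to 139 of the 150 members were chosen again (median 125), and leaving out a construct library kept 127 to 149 (median 145). The lowest value, 94, came without wildtype pool 2 of batch 5, which had 11.5 M counts. Potri.015G010500 and Potri.014G016500 were 2 members in which that pool stood apart, with 9.79 CPM of Potri.015G010500, where pools 1 and 3 had 32.4 and 31.7 CPM, and with 18.2 CPM of Potri.014G016500, where they had 5.38 and 7.36 CPM.

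A comparison with no wildtype library in it set each of the 6 constructs against the mean of those constructs of its batch that are not among the 6 (5 in batches 3 and 6, 3 in batch 4 and 10 in batch 5). In batches 3 and 4 the members still differed in the direction of the rule, with medians over higher and lower members of 0.31 and -0.34 in i20, 0.46 and -0.36 in i35 and 0.48 and -0.43 in i26. In i29 they were 0.03 and -0.16, against a reference that includes i19 (PtrHCT1 and PtrHCT6), with 0.74 and -0.83 against wildtype. In batch 6 the direction was mixed, with -0.11 and 0.18 in i24 and 0.14 and 0.09 in i30, and 19 of 45 higher members lay above and 36 of 105 lower members below these constructs in i24. The median over all genes lay between -0.02 and 0.04 in these comparisons. The reference of batch 6 includes i15 (Ptr4CL3 and Ptr4CL5), with medians against wildtype of 1.46 over the higher and -1.69 over the lower members. The others in it, a12, a13, i21 and i53, had 0.23 to 0.50 and -0.14 to -0.54. No comparison without i15 or without i19 was made. The rule used the libraries of the 6 constructs, so the values are a description.

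The other 23 constructs of batches 3 to 6 share the wildtype libraries that chose the members, and their values are given beside the above without a test. Both medians lay on the side of the rule in 21 of the 23, and the median over the lower members was below 0 in all 23. The median over the higher members was 1.46 and that over the lower members -1.69 in i15 (Ptr4CL3 and Ptr4CL5, batch 6), the widest of all 45 constructs, including the 6 that set the rule. i19 (PtrHCT1 and PtrHCT6, batch 5) had 0.74 over the higher and -0.83 over the lower members. Its lines differed, with library medians over the higher members of 1.78 to 1.95 in line i19-7 and 0.15 to 0.86 in the others. Constructs directed at transcription factors of the same batches had medians over the higher members of 0.46 in i56 (PtrMYB003 and PtrMYB020), 0.40 in i50 (PtrKNOX1) and 0.03 in a46 (PtrMYB156). These medians were 0.23 in a52 (PtrMYB021), 0.18 in a54 (PtrMYB003) and 0.23 in i53 (PtrMYB002 and PtrMYB021). The lowest were a10 (PtrC4H1) and a9 (PtrC4H2) of batch 4, both at -0.19. What these constructs have in common with the 6 cannot be told apart from what the shared wildtype libraries give to all of them. In batches 1 and 2, which have wildtype libraries of their own, both medians lay on the side of the rule in 8 of 16 constructs. There the median over the higher members was above 0 in 10 and that over the lower members below 0 in 10.

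**Figure D4:**
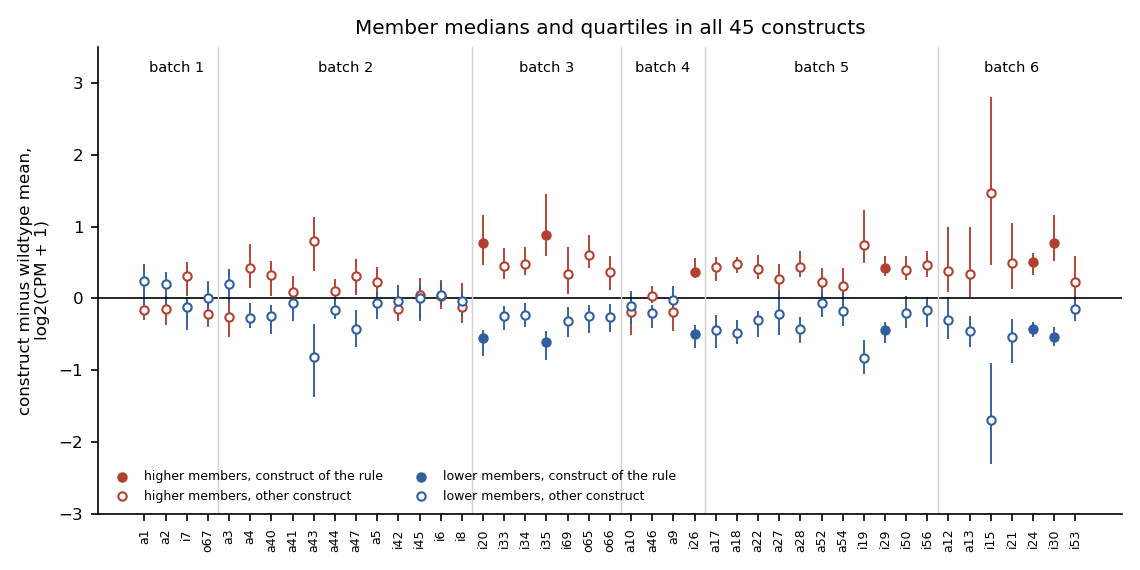
Median (points) and quartiles (lines) of the difference from the batch's wildtype mean, in log2(CPM + 1), over the 45 higher (red) and 105 lower (blue) members in all 45 constructs of the 6 batches. Filled points are the 6 constructs of the rule, and open points in batches 3 to 6 share their wildtype. In batches 1 and 2, which have wildtype of their own, the medians over higher members lie between -0.25 in a3 and 0.80 in a43.

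Batches 1 and 2 gave none of the differences that chose the members and have wildtype libraries of their own. Their libraries entered the choice only through the mean CPM and the TMM factors, both taken over all libraries. With the mean CPM over the libraries of the rule, 148 of the members were chosen again, and with TMM factors within each batch 145. Tests were made in batches 1 and 2 with edgeR's quasi-likelihood test and Benjamini-Hochberg adjustment over all genes tested. In i7, directed at 3 PtrPAL genes, the higher members had a median log2 fold change of 0.35 and the lower members one of -0.09, against 0.01 over all 25009 genes tested. The fold change was above 0 for 36 of 45 higher members and below 0 for 72 of 105 lower members. Without wildtype pool 1 the lower members had a median of -0.01, and 56 of 105 lay below 0. No higher member was called higher (0.0360% of all genes), 7 had an unadjusted p under 0.05 in that direction, and DESeq2 called 2. Of the lower members 1 was called lower (0.0320% of all genes) and 20 had an unadjusted p under 0.05 in that direction, and DESeq2 called 6. Among all 25009 genes, 2818 had an unadjusted p under 0.05 in either direction, and DESeq2 called 149 higher and 88 lower. With the pools of each line summed to 1 value the edgeR call of the lower member was lost.

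The member that fell in i7 was Potri.002G092100 on chromosome 2. It had 18.3, 21.4 and 27.5 CPM as lowest, median and highest of the 12 i7 libraries, against 39.2, 35.2 and 32.99 CPM in wildtype, a log2 fold change of -0.71 (SE 0.11, adjusted p = 0.0316). All i7 libraries lay below all wildtype libraries. Without any 1 of the 3 wildtype libraries it was no longer called. Potri.015G010500 had 6.37, 16.5 and 35.9 CPM in i7, against 46.4, 68.2 and 69.7 CPM in wildtype, also without overlap, and missed the threshold (log2 fold change -1.79, SE 0.33, adjusted p = 0.0521). Potri.014G016500 had 9.53, 16.5 and 42.8 CPM in i7, against 5.53, 5.26 and 4.57 CPM in wildtype. Its groups did not overlap either (log2 fold change 2.04, SE 0.50, adjusted p = 0.148). Potri.015G003100 had 4.17, 15.9 and 25.4 CPM in i7, against 19.0, 5.86 and 15.5 CPM in wildtype, so the first of the lower members in the list was level with wildtype in this batch (log2 fold change 0.30, SE 0.41, adjusted p = 0.825).

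Lines of i7 differed as those of the 6 constructs had. Medians over higher and lower members were 0.72 and -0.58 in line 2 and 0.38 and -0.15 in line 10, but 0.01 and 0.11 in line 6 and -0.04 and 0.08 in line 8.

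The overexpression construct o67 of the same batch, which shares the wildtype libraries with i7, had a median log2 fold change of -0.22 over the higher and 0.02 over the lower members. Of 43 higher members tested, 11 lay above 0, and of 105 lower members 49 lay below 0. Without wildtype pool 2 the medians were -0.05 and -0.04. None passed the test in the direction of the rule, where 0.0363% of all genes were called higher and 0.153% lower. Unadjusted p-values under 0.05 were found for 1 higher member that was higher and 7 lower members that were lower, and DESeq2 called 0 and 1. DESeq2 also called 4 higher members lower and 2 lower members higher. The other direction held 11 higher members that were lower at an unadjusted p under 0.05 and 10 lower members that were higher. Among all 24817 genes tested, 4460 had an unadjusted p under 0.05 in either direction, and DESeq2 called 358 higher and 431 lower.

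In i8, directed at all 5 PtrPAL genes, 2 of 43 higher members tested were called higher (4.98% of all genes) and 3 were called lower. Of the lower members, 7 of 105 were called lower (5.18% of all genes) and 3 were called higher. The fold change was above 0 for 18 higher and below 0 for 60 lower members. The shares of members called were close to the share of all genes called. Potri.013G008200, a higher member on chromosome 13, had 11.8, 12.8 and 15.8 CPM as lowest, median and highest of 9 i8 libraries, against 8.63 to 10.9 CPM in 3 wildtype libraries (log2 fold change 0.44, SE 0.13, adjusted p = 0.0466). Potri.007G088100 was the other (adjusted p = 0.0170), with 0.590, 9.83 and 15.0 CPM in i8, against 0, 0.119 and 0.238 CPM in wildtype. Without a wildtype library, 0 to 1 higher members were called higher. Potri.015G010500 fell to 4.43, 9.34 and 11.6 CPM in i8, against 23.0, 13.9 and 12.9 CPM in wildtype, with no overlap (log2 fold change -0.99, SE 0.27, adjusted p = 0.0295).

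A lower member rose in i8. Potri.014G080400 on chromosome 14, which had differences of -0.27 in i20 to -1.29 in i30 in the choice of members, had 24.7, 36.6 and 63.6 CPM as lowest, median and highest of the i8 libraries, against 4.63 to 10.0 CPM in wildtype (log2 fold change 2.57, SE 0.38, adjusted p = 0.000700). It was singled out after its values were seen. The 27 libraries of the 5 PtrPAL constructs of batch 2 had 18.1 to 95.6 CPM of it, and the 63 libraries of the 7 regulator constructs had 0 to 11.5 CPM, with no overlap. The log2 fold change of i8 against the regulator constructs was 2.70 (SE 0.14, adjusted p = 4.85e-27). In batch 1 the i7 libraries had 0 to 3.67 CPM, against 1.502 to 3.63 CPM in wildtype, so the groups overlapped in this PtrPAL construct of another batch. The PtrPAL libraries of batch 2 held 13.4 to 45.96 M counts, the regulator libraries 2.12 to 15.4 M and the wildtype libraries 4.57 to 9.08 M, and the part of this in the difference was not tested.

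Set against the 7 regulator constructs, with no wildtype library, i8 had 0 of 43 higher members called higher (8.93% of all genes) by edgeR and by DESeq2, and 0 at an unadjusted p under 0.05. Among all 24937 genes tested, 7671 had an unadjusted p under 0.05 in either direction. i8 had 14 higher members called lower. Of the lower members, 3 of 105 were called lower (9.75% of all genes) and 11 were called higher. More members were thus called against the direction of the rule than along it, but with the pools of each line summed to 1 value the calls against it numbered 1 higher and 2 lower members, and those along it 0 and 1.

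Of the other 13 constructs of batches 1 and 2, tested after the first results were seen, a47, an artificial microRNA construct directed at PtrMYB221, had the most members called. In a47, 10 of 43 higher members were called higher (5.18% of all genes) and 20 of 104 lower members lower (4.32% of all genes), and 1 of each list was called in the other direction. The median log2 fold change was 0.41 over the higher and -0.40 over the lower members, and all 3 lines had medians on the side of the rule. Without any 1 of the 3 wildtype libraries, 3 to 5 higher and 9 to 17 lower members were called. Potri.013G008200 was among them, with 13.7, 18.1 and 25.7 CPM as lowest, median and highest of 9 a47 libraries, against 8.63 to 10.9 CPM in wildtype (log2 fold change 0.89, SE 0.17, adjusted p = 0.00682).

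The construct a43, directed at PtrMYB167, had larger medians and no calls. Its median log2 fold change was 1.06 over the higher and -0.59 over the lower members, and 42 of 44 and 91 of 105 lay on the side of the rule. No member was called by edgeR in either direction (0.00413% of all genes were called higher and 0% lower). At an unadjusted p under 0.05, 15 higher members were higher and 12 lower members lower. Among all 24185 genes tested, 2151 had such a p in either direction. The 3 lines differed widely, with medians over higher and lower members of 1.42 and -1.94 in line 13, 0.57 and -0.37 in line 12 and 0.11 and -0.24 in line 17.

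The other 11 constructs had few members called. Among those directed at PtrPAL genes, a1 (PtrPAL1) had 1 of 43 higher members called higher (0.218% of all genes) and 5 of 105 lower members called lower (0.390%), a2 (PtrPAL3) had 1 (0.00426%) and 0 (0%), and a3 (PtrPAL4) had 0 (3.67%) and 1 (1.13%). In a4 (PtrPAL5) these counts were 0 (2.89%) and 3 (0.504%), in a5 (PtrPAL2) 2 (5.03%) and 3 (2.39%), and in i6 (PtrPAL1 and PtrPAL3) 1 (3.26%) and 1 (1.84%). The PtrLIM construct a40 had 2 of 42 higher members called higher (0.897%) and 6 of 105 lower members called lower (1.40%), a41 had 1 (0.0169%) and 0 (0.144%), and i42 had 0 (0.0294%) and 0 (0.0210%). The PtrMYB construct a44 had 1 (0.00428%) and 0 (0%), and i45 had 1 (2.50%) and 5 (2.23%). Calls against the rule outnumbered those along it in a3, i6 and i45. Higher members called lower and lower members called higher numbered 1 and 6 in a3, 1 and 3 in i6 and 3 and 6 in i45. Most fold changes in a1 and a2 also lay against the rule. Above 0 were 10 of 43 higher members in a1 and 11 of 43 in a2. Below 0 were 34 of 105 lower members in a1 and 33 of 105 in a2. At an unadjusted p under 0.05, a1 had 12 lower members lower and 35 higher, and 3 higher members higher and 8 lower. Among all 23838 genes tested in a1, 3602 had such a p in either direction. On the log2(CPM + 1) scale the median difference over the higher members ranged from -0.25 in a3 to 0.42 in a4, constructs of the same gene family in the same batch with 3 libraries each. Potri.007G088100 was called higher in 6 of the 16 constructs of these batches, i8, a1, a2, a41, a44 and a5, and was the only higher member called higher in a1, a2, a41 and a44.

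**Figure D5:**
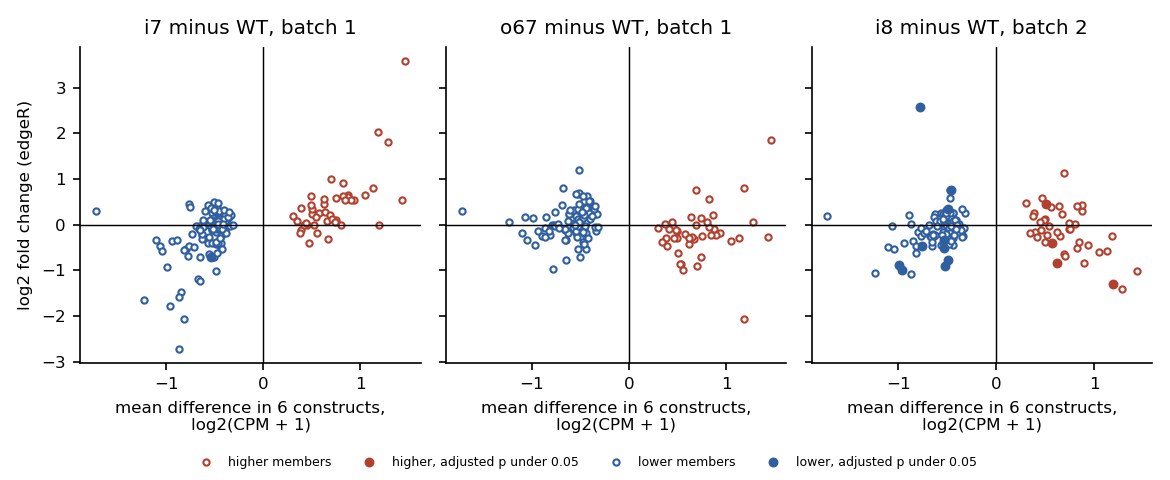
Log2 fold change by edgeR in i7, o67 and i8 against the wildtype of their batch, plotted against the mean difference in the 6 constructs of the rule, in log2(CPM + 1). Red points are higher and blue points lower members, filled where the adjusted p was under 0.05, and members with 3 or fewer wildtype counts in the batch are left out. Of the higher members drawn, 34 of 43 lie above 0 in i7 and 11 of 43 in o67, and the filled blue point at 2.57 in i8 is Potri.014G080400.

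Chromosome 17 held 12 of 150 members (8.00%) and 3.06% of the 19109 genes, 5 of them higher and 7 lower. No other chromosome had as large a gap between these shares. In the order of the table, 12 pairs of members lay no more than 5 places apart, 4 of them adjacent, and both genes of each pair had the same direction. These pairs held 23 members and were described after their values were seen. How many such pairs other genes form was not counted, and the members on chromosome 17 include the run described next.

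A run of higher members lay on chromosome 17, with Potri.017G048700, Potri.017G048900, Potri.017G049000 and Potri.017G049600 within 10 consecutive genes. Their differences were 1.01 to 1.53 in i20, 1.38 to 2.01 in i35, 0.42 to 0.50 in i26, 0.76 to 1.26 in i29, 0.28 to 0.53 in i24 and 1.10 to 1.47 in i30. The 6 genes between them were no members. Of these, Potri.017G049500 had 1.99 in i20 and 2.76 in i35, above the values of the members, but -0.18 in i24 and -0.02 in i30. The run as a whole was thus higher in the constructs of batch 3, in i26 (0.11 to 0.50) and in i29 (0.59 to 1.58). Only some of its genes were also higher in batch 6. Some members had counts close to those of another gene. Potri.017G049000 and Potri.017G049600 had counts within 5% of each other in 127 of 378 libraries, and the lower members Potri.001G121900 and Potri.T145400 in all 378, with 1139376 and 1143120 counts in all, so that these values are uncertain. Whether these genes share reads was not tested. Potri.010G156600, a lower member, had such a partner outside the list, Potri.016G010900, in 223 libraries.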

How the data were processed

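The authors prepared TruSeq libraries, sequenced them on the Illumina GAIIx, aligned reads with Bowtie and TopHat to version v3.0 of the *P. trichocarpa* genome and counted them by gene with BedTools. Deposited were the unscaled counts for 41334 genes in 378 libraries, with 2.12 to 93.5 M counts each, before the TMM scaling the authors applied later. How reads mapping to several genes were counted is not given in the sources used here. No 2 library columns were identical. TMM factors over all libraries, CPM and log2(CPM + 1) with a pseudocount of 1 chose the members. Tests on raw counts used R 4.3.3 and edgeR 4.0.16 (filterByExpr, TMM, glmQLFit, glmQLFTest, threshold 0.05), with DESeq2 1.42.0 as an alternative. The edgeR tests were also run on simulated counts. These were drawn with no differences between lines, so the simulation does not cover that spread. Python 3.11.15, pandas 2.3.3 and matplotlib 3.10.9 made tables and figures. Alternatives were other size factors, filters, pseudocounts, 1 value per line, a replicate block and left-out libraries. Members and lists were chosen with earlier results of these data known. Gene lists by product name could not be applied, and because identifiers are unnamed only the first 2 higher and first 2 lower members were described in full, with few others named for a test or position.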

Additional observations from a re-analysis of the deposited data

Results flagged for a closer look

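Library i30-1-3 stood apart from the other 8 libraries of its construct in 2 measures. Its median difference over the lower members was -1.26 on the log2(CPM + 1) scale, with the nearest library at -0.69, and it had 31.7 CPM of Potri.014G016500, with the nearest library at 9.41 CPM. Each gap exceeded Dixon's 95% critical value. Over the 42 groups and measures examined, about 2.1 such flags arise by chance. Pairs of constructs of a batch were compared by the library medians over the higher and over the lower members, 102 comparisons in all. Each pair included i7, o67, i8 or a construct of the rule. In none did the libraries of the paired constructs lie wholly on opposite sides of the wildtype mean.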

How the results depend on the processing

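Membership depended on the wildtype libraries. Without pool 1, 2 or 3 of every wildtype batch, 67 to 86 of the 150 members were chosen again, and without single libraries 94 to 149, the lowest without wildtype pool 2 of batch 5. Without TMM 120 were kept, with no minimum CPM 111, without i30-1-3 and i29-L-2 124, and 145 to 149 under the other settings. Without wildtype pool 1, 2 or 3, 5, 15 and 8 members no longer had the same sign in all 6 constructs, and 11 without pool 2 of batch 4 alone. None was reversed in all 6. In i7, lower members called lower numbered 2 with no filter, 0 with each line once, 6 with DESeq2 and 0 without any 1 wildtype replicate, and DESeq2 called 2 higher members. In o67 DESeq2 called 1 lower member. In i8, higher members called higher numbered 1 with no filter, 1 with each line once and 0 to 1 without a wildtype replicate. Against the regulators, 1 lower member was called with each line once. In a47, the calls were 3 to 5 higher and 9 to 17 lower without a wildtype replicate, and 5 and 13 with each line once. The cause of these changes was not tested. Pool numbers did not pair the samples (correlations of -0.28 to 0.16), and a replicate block on them left 0 higher and 1 lower member in i7, 0 and 0 in o67, 2 and 7 in i8, and 0 and 3 against the regulators. Only 3 wildtype pools per batch, and 4.57 to 9.08 M counts in those of batch 2, limit the precision.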
